A study of Rattus norvegicus with 6 samples.

Results

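The genes for a group of subunits of eukaryotic translation initiation factor 3 (eIF3), namely Eif3b, Eif3d, Eif3g, Eif3i and Eif3j, were followed in rat cells given an siRNA against a further subunit, eIF3m. They were chosen by gene symbol as the eIF3 subunits whose proteins have no PCI or MPN domain, and all 5 were found among the 31038 rows of each file, which hold 13 eIF3 subunits in all. Of 6 RNA sequencing libraries, 3 came from cells given a control siRNA and 3 from cells given the eIF3m siRNA. The labels call the cells NRVM, without spelling the name out, and give rat embryo myocardium as their origin and myocardial cells as their type; their growth text gives DMEM with serum. Dexamethasone, insulin and isobutylmethylxanthine are also named in the extraction text, and whether these cells received them is unclear. The labels give no age of the embryos and name no ischaemia, and nothing in them ties the replicates to different cultures. The p-values below therefore reflect the scatter among these 3 libraries per group, part or all of which may be technical. Where values of single libraries are listed, they stand in the order of replicates 1, 2 and 3 of the group.

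eIF3 is the largest of the initiation factors and holds the small ribosomal subunit while mRNA is loaded and the start codon is found. In mammals its PCI and MPN subunits, eIF3m among them, form a core called the octamer. The subunits described here lie outside that core. eIF3b is a scaffold with an RNA recognition motif and a WD-repeat propeller, and it binds eIF3i, a WD-repeat protein, and eIF3g, which has an RNA recognition motif. eIF3d is a peripheral subunit that can bind the cap of selected mRNAs. eIF3j is loosely attached, sits near the path of the mRNA on the small subunit and takes part in subunit recycling.

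Library totals ran from 2151671 counts in eIF3m siRNA replicate 2 to 10041107 in eIF3m siRNA replicate 1. Scaling factors of the trimmed mean of M-values (TMM) were 0.947 to 0.953 in the controls and 1.05 to 1.06 in the eIF3m siRNA libraries, so scaling moves with the groups. eIF3m siRNA replicate 1 stood apart by globin transcripts, with Hbb at 2140 CPM, the counts of a gene scaled to a common library size, against 11 to 73.1 in the other libraries. The summed level of 5 red cell markers was 6250 CPM there and 50.8 to 233 CPM in the rest of its group, against 32.4 to 77.3 in controls. Of 10 cardiomyocyte markers only Tnnt2, Tnnc1 and Pln had enough counts to be tested, and all 3 fell, with a summed level of the 10 from 542 to 561 CPM in controls and from 229 to 248 CPM in the eIF3m siRNA group. Myh6 and Myh7, the cardiac myosin heavy chains, were at 0.743 ± 0.106 and 0.0884 ± 0.0771 CPM in controls (SD, n = 3), so a pair of defining markers of the labelled cell type was low. In counts, Myh6 had 5 to 6 per control library and Myh7 had 0 to 1. All 5 smooth muscle markers fell, from a summed 5640 to 5780 CPM in controls to 3630 to 3820 CPM, as did 4 of 5 tested skeletal myoblast markers (79.7 to 85.4 and 40.2 to 47.4 CPM). Of 6 tested fibroblast markers 4 rose and 1, Thy1, fell; their summed level of 14800 to 15300 CPM in controls and 16100 to 16900 CPM with the eIF3m siRNA was mostly Col1a1 (12100 CPM in controls). Dcn, one of the 4, was at 55.5 CPM in eIF3m siRNA replicate 1 and at 2.21 and 1.8 CPM in replicates 2 and 3. Endothelial and leukocyte markers summed to 43.8 and 29.3 CPM in eIF3m siRNA replicate 1 and to at most 8.85 and 4.96 CPM in the other libraries. By the edgeR test used below (adjusted p under 0.05), 21.2% of all genes tested fell and 17.4% rose. The part of these cell type markers in the results was not tested. In such bulk samples, fewer cells of a type and less RNA per cell cannot be told apart.

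Eif3m, the targeted gene, measured 138, 136 and 141 CPM in the control libraries and 92, 84.1 and 87.6 CPM in the eIF3m siRNA libraries. It fell by 0.64 ± 0.05 on the log2 scale (SE; edgeR quasi-likelihood test, Benjamini-Hochberg adjusted p = 1.41e-07), a change of -35.9%. The groups did not overlap, which matches the labels, and the knockdown of the transcript was partial.

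Against that background, 0 of the 5 subunits outside the octamer rose and 0 fell (edgeR, adjusted p under 0.05), while 38.7% of the 12724 genes tested were called. At an unadjusted p under 0.05 the count was 2, against 47% of all genes tested, and the counts by the DESeq2 Wald test and by limma-voom were both 0. All 5 passed the filter on low counts. Their median log2 fold change was 0.0051, against 0.0127 over all genes tested. The median size of their changes was 0.02, against 0.24 over all genes tested. That larger value includes genes with few counts and was not matched for level. Over the other 7 octamer subunits the median size was 0.14, and over 26 partner factors described below 0.12. The 5 values fell into 2 sets. Eif3b, Eif3d and Eif3j lay within 0.03 of 0 on the log2 scale, and Eif3g and Eif3i lay at -0.13.

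**Figure D1:**
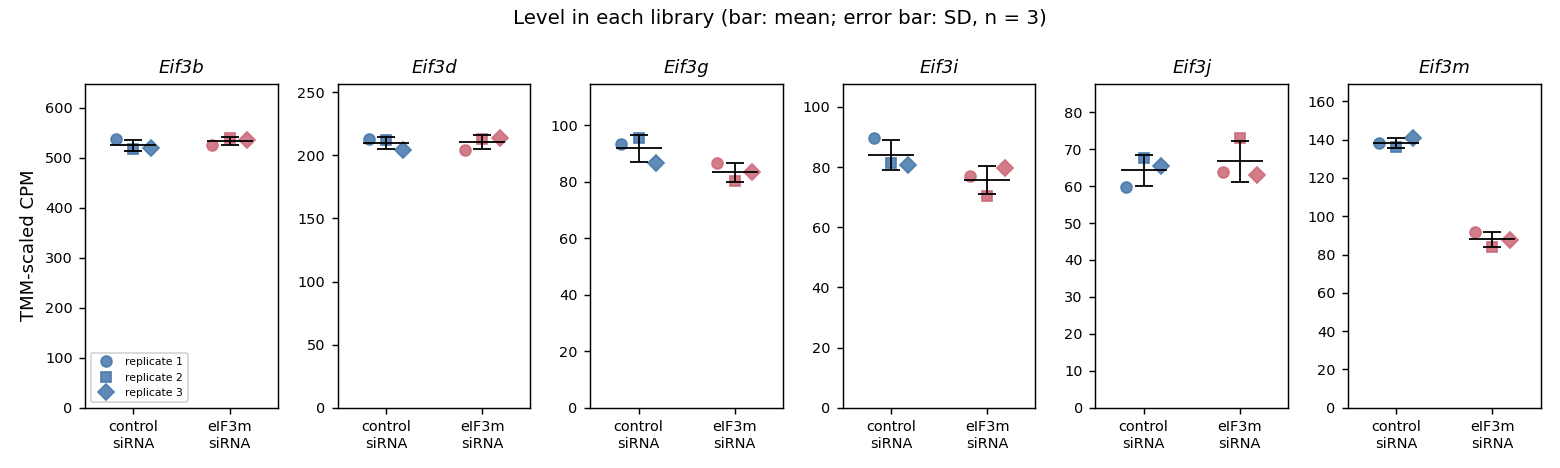
TMM-scaled CPM (vertical axes, starting at 0) of the 5 subunits outside the octamer and of Eif3m in each control siRNA and eIF3m siRNA library, with 1 symbol per replicate, a bar at the mean and error bars of 1 SD (n = 3). Eif3m drops from 136 to 141 CPM to 84.1 to 92 CPM, while the 2 groups of Eif3b, Eif3d, Eif3g and Eif3j overlap and those of Eif3i are 1.1 CPM apart at their nearest.

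Eif3b, the scaffold, had the most counts of the 5. It measured 537, 518 and 519 CPM in the control libraries and 525, 540 and 535 CPM in the eIF3m siRNA libraries. The highest library belonged to the eIF3m siRNA group and the lowest to the controls, and the groups overlapped. The mean was 525 ± 10.5 CPM in controls and 533 ± 7.66 CPM with the eIF3m siRNA (SD, n = 3), a log2 fold change of 0.02 ± 0.03 SE (adjusted p = 0.63). The 95% interval of the fit ran from -0.05 to 0.10, or from -3.43% to 6.97%. The coefficient of variation between replicates was 2.00% in controls, where counting alone gives 1.58% at the mean count. With the eIF3m siRNA it was 1.44%, and counting alone gives 2.86% at the count of replicate 2, the smallest library.

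Eif3i, the WD-repeat protein bound to eIF3b, measured 89.8, 81.5 and 80.7 CPM in the control libraries and 76.9, 70.4 and 79.6 CPM in the eIF3m siRNA libraries. Every eIF3m siRNA library was below every control, by a gap that is smaller than the SD of either group (5.02 and 4.73 CPM). Groups that do not overlap were found for 48.6% of all genes tested, and in this direction for 25.3%. The log2 fold change was -0.13 ± 0.06 SE, with a 95% interval of -0.26 to -0.001 (unadjusted p = 0.0485), and it did not pass after adjustment over all genes (adjusted p = 0.104). In percent the interval was -16.3% to -0.0679%.

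Eif3g, which joins eIF3i on the scaffold, had nearly the same value. It measured 93.3, 95.6 and 86.6 CPM in the control libraries and 86.8, 80.1 and 83.3 CPM in the eIF3m siRNA libraries. The groups overlapped by a single pair, control replicate 3 and eIF3m siRNA replicate 1, which differed by 0.2 CPM. The mean was 91.8 ± 4.66 CPM in controls and 83.4 ± 3.33 CPM with the eIF3m siRNA, a log2 fold change of -0.13 ± 0.06 SE (95% interval -0.25 to -0.01, unadjusted p = 0.0422, adjusted p = 0.0928). Without control replicate 3, the control nearest to the other group, Eif3g passed at -0.17 ± 0.06 SE (adjusted p = 0.0396). It did not pass when any of the other 5 libraries was left out.

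Eif3d, the cap-binding subunit, measured 213, 212 and 204 CPM in the control libraries and 204, 213 and 214 CPM in the eIF3m siRNA libraries. Each group held 2 libraries at 212 to 214 CPM and 1 at 204 CPM. Both means were 210 CPM (SD 5.19 and 5.36), and the log2 fold change was 0.01 ± 0.05 SE (adjusted p = 0.979). The 95% interval of -6.5% to 7.71% leaves room for a change of that size in either direction.

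Eif3j, the loosely attached subunit, had the fewest counts of the 5 in every library but eIF3m siRNA replicate 2, from 165 in eIF3m siRNA replicate 2 to 667 in eIF3m siRNA replicate 1. It measured 59.7, 67.7 and 65.4 CPM in the control libraries and 63.8, 73.1 and 63.1 CPM in the eIF3m siRNA libraries. The lowest value was a control and the highest came from the smallest library, where counting alone gives a coefficient of variation of 7.78%. The log2 fold change was 0.02 ± 0.07 SE (adjusted p = 0.989), and its 95% interval, -8.34% to 12%, was the widest of the 5 in percent.

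Under TMM scaling, these intervals give the changes that the scatter among the libraries leaves room for. As for the p-values, part or all of that scatter may be technical. The intervals do not cover the choice of scaling. With no scaling factors, Eif3b (0.1698), Eif3d (0.1515) and Eif3j (0.1647) lay above the upper ends of their intervals, 0.0972, 0.1071 and 0.1629 on the log2 scale. The lower ends of Eif3b, Eif3d and Eif3j, -3.43%, -6.5% and -8.34%, all lie short of the -35.9% of Eif3m, and so do those of Eif3g and Eif3i, -15.7% and -16.3%. A p that misses the threshold does not show that a transcript was unchanged, and smaller changes lie within these intervals.

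Some of these counts can hold reads from elsewhere. A RefSeq gene table of assembly GRCr8, used for names and neighbours, lists 4 entries named as Eif3i pseudogenes and 1 each for Eif3b, Eif3d and Eif3g, none for Eif3j; the files have no row under those names. How reads that map to several places were counted is not given in the sources used here. Rps6, a ribosomal protein gene, had 0 to 7 counts per library. In the same table Eif3i overlaps Tmem234, and Eif3j overlaps Spg11. Tmem234 was at 10.3 ± 0.548 CPM in controls and 8.99 ± 0.463 CPM with the eIF3m siRNA (log2 fold change -0.20 ± 0.16 SE, edgeR adjusted p = 0.359). Its direction was that of Eif3i, and neither passed. Spg11 fell from 57.1 ± 2.58 to 48.6 ± 3.36 CPM (-0.23 ± 0.07 SE, adjusted p = 0.0185), a direction that Eif3j did not share. Values of Eif3i and Eif3j are uncertain to the extent that overlapping reads were assigned to them.

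The start-site regions of the 5 genes are shown because the subunits of 1 complex are transcribed from separate loci, and the letters let the reader compare them with the gene whose transcript was targeted. Each line gives the 100 bases before the annotated start of transcription, 5′ to 3′ on the gene's strand, from RefSeq on GRCr8; the counts were made on rn6. Capitals mark CCGGAAG or its reverse complement CTTCCGG, a core bound by ETS family factors.
Eif3b, chr12:19334769-19334868, minus strand: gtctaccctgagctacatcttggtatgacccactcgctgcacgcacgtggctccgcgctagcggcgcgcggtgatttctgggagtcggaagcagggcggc
Eif3d, chr7:111432741-111432840, minus strand: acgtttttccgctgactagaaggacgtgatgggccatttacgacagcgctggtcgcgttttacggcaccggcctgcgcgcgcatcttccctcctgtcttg
Eif3g, chr8:27709947-27710046, minus strand: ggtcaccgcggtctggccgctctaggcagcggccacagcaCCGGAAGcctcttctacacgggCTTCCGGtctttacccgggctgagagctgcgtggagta
Eif3i, chr5:147226911-147227010, minus strand: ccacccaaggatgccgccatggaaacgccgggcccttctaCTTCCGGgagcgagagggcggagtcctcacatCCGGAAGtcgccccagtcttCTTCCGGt
Eif3j, chr3:129438615-129438714, plus strand: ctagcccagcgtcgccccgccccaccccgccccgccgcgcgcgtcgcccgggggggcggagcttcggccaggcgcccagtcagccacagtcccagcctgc
Eif3m, chr3:111897194-111897293, minus strand: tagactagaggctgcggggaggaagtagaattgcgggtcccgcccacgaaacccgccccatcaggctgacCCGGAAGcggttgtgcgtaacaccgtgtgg

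Over the whole 300-base regions, from 250 bases before to 50 after the start, CCGGAAG was found on either strand in 3 of the 5 genes, Eif3d, Eif3g and Eif3i, and in 8.75% of 33469 regions of that length. Eif3g had 2 matches, whose first bases lie 60 and 38 bases upstream, and Eif3i had 3, at 60, 28 and 8 bases upstream. Eif3d had 1 match at 129 bases upstream, outside the stretch shown, and Eif3m had 1 at 30 bases upstream. TATAAA and CCAAT were found in none of the 5 on either strand, against 14.2% and 37.5% of all regions. GGGCGG was found in 3 of the 5, Eif3b, Eif3i and Eif3j, against 33.1%. A match describes the letters and is not a bound site. TGACG was found in 2, Eif3d and Eif3i, against 21.2%; all 5 motifs were searched on both strands, and no match overlapped another. The motifs were chosen after the sequences had been seen.

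Subunits of the octamer other than Eif3m were measured in the same libraries, and 4 of those 7 fell and 0 rose, against 21.2% fallen and 17.4% risen of all genes tested. Their median log2 fold change was -0.14. With no scaling factors it was 0.0051, with 1 fallen and 1 risen, and with libraries thinned to equal depth 2 fell and 1 rose; the subunit that rose was Eif3e in both. Eif3c measured 629, 626 and 643 CPM in the control libraries and 529, 528 and 508 CPM in the eIF3m siRNA libraries. It fell by 0.28 ± 0.03 (SE, edgeR adjusted p = 9.13e-06). Its 95% interval of -21.5% to -13.3% does not overlap those of Eif3b, Eif3d and Eif3j. It does overlap those of Eif3g (-15.7% to -0.35%) and Eif3i (-16.3% to -0.0679%). Differences between genes were not tested. Eif3a and Eif3l fell by 0.19 and 0.22 on the log2 scale, and Eif3k by 0.14, a call that was lost in 12 of 17 alternatives, among them 5 of the 6 in which a library was left out. Eif3a and Eif3l did not pass with no scaling factors (-0.05 and -0.07), nor Eif3l with libraries thinned to equal depth (-0.15). Eif3e (0.06), Eif3f (-0.06) and Eif3h (-0.09) did not pass, so the octamer too held transcripts that were not called. All 5 subunits outside the octamer lie within the range of these 7: Eif3g and Eif3i are close to Eif3k, and Eif3b, Eif3d and Eif3j lie between Eif3f and Eif3e.

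**Figure D2:**
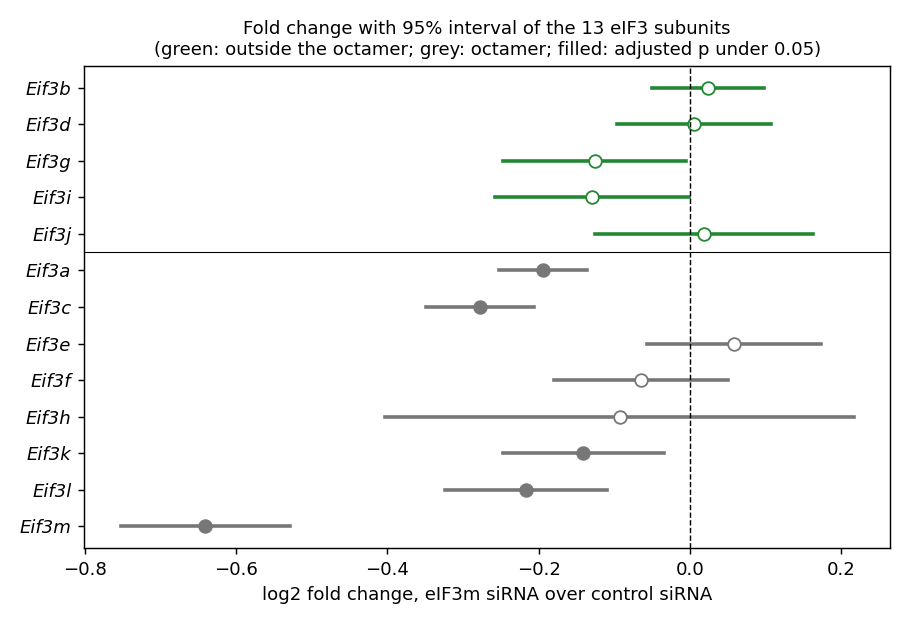
Log2 fold change of eIF3m siRNA over control siRNA (horizontal axis) with its 95% interval for the 5 subunits outside the octamer (green) and the 8 octamer subunits (grey); filled points passed at adjusted p under 0.05. All 5 green points are open, with Eif3g and Eif3i at -0.13, while Eif3m (-0.64), Eif3c (-0.28), Eif3l (-0.22), Eif3a (-0.19) and Eif3k (-0.14) are filled.

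Ratios of counts within a library do not depend on how libraries are scaled. Relative to Eif3m, the count of Eif3b was 3.9, 3.81 and 3.68 in the control libraries, against 5.71, 6.42 and 6.11 in the eIF3m siRNA libraries. The means of this ratio differed 1.6-fold between the groups, and those of Eif3d, Eif3g, Eif3i and Eif3j to Eif3m differed 1.58-, 1.43-, 1.41- and 1.63-fold. All 5 ratios were higher in every eIF3m siRNA library than in any control, as were those of 80.1% of all genes tested. Since Eif3m was the target, these ratios carry its decrease, and nothing about the 5 genes is read from the separation.

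Relative to the summed counts of the other 7 octamer subunits, the 5 genes together gave ratios of 0.451, 0.439 and 0.43 in the control libraries, against 0.491, 0.498 and 0.503 in the eIF3m siRNA libraries. All 3 eIF3m siRNA libraries lay above the controls, with means of 0.497 ± 0.00578 and 0.44 ± 0.0106 (SD, n = 3), a 1.13-fold difference. Eif3b (1.15-fold), Eif3d (1.14-fold) and Eif3j (1.18-fold) were higher in every eIF3m siRNA library than in any control on this ratio, as were 42.4% of all genes tested. The ratios of Eif3g (1.03-fold) and Eif3i (1.02-fold) overlapped between the groups. Much of the summed octamer count belongs to Eif3a and Eif3c, which fell. With those 2 left out of the sum, the 1.13-fold difference was 1.05-fold, and with every subunit given equal weight it was 1.06-fold. Both of these alternatives were added after the data had been seen.

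**Figure D3:**
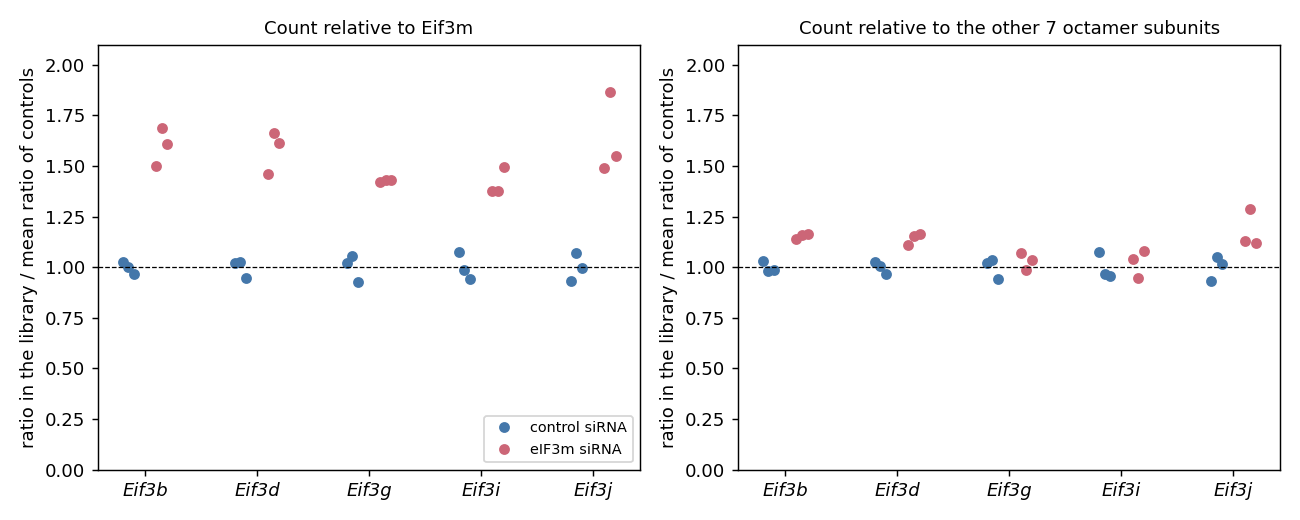
Count of each of the 5 genes relative to Eif3m (left) and to the sum of the other 7 octamer subunits (right) in each library, divided by the mean ratio of the controls (vertical axes, starting at 0); blue points are control siRNA and red points eIF3m siRNA libraries. On the left all 5 genes are separated between groups, by 1.41- to 1.63-fold in their means; on the right Eif3b, Eif3d and Eif3j are separated while Eif3g and Eif3i overlap.

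The proportions of counts among the 5 genes differed little for Eif3d and by up to 0.905-fold, for Eif3i, in the means of the groups. Eif3b made up a fraction of 0.532 to 0.543 of their summed counts in controls and 0.549 to 0.553 with the eIF3m siRNA, without overlap, and Eif3d made up 0.213 to 0.217 and 0.214 to 0.22. Eif3i made up 0.0836 to 0.0904 in controls and 0.0721 to 0.0816 with the eIF3m siRNA, without overlap. The fractions of Eif3g, 0.0907 to 0.0981 and 0.082 to 0.0907, and of Eif3j, 0.0601 to 0.0694 and 0.0647 to 0.0748, overlapped. How many of all genes tested would separate on such a fraction was not computed, and each of the 5 is part of the sum. Nothing about Eif3b and Eif3i is therefore read from their separation. Counts grow with transcript length, so these fractions give no order of molecule numbers between genes; transcript lengths were not used here.

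Factors that work with eIF3 in initiation were taken from 4 lists. Of 26 tested, 3 rose and 7 fell, with a median of -0.04, against 17.4% risen and 21.2% fallen of all genes tested; with no scaling factors 8 rose and 1 fell. In the list of ternary complex and start codon factors 0 rose and 2 fell of 8, Eif5b, which joins the ribosomal subunits, by 0.28, and Eif2s2, the beta subunit of the initiator tRNA carrier eIF2, by 0.13. Eif2s2 was lost in 10 of 17 alternatives, 5 of them with a library left out, and Eif5b in 6, 3 of them with a library left out. Among 9 cap and mRNA recruitment factors 2 rose and 3 fell. Pabpc1, the poly(A)-binding protein, fell from 1680 ± 61.4 to 1400 ± 46.8 CPM (-0.26 ± 0.03 SE, adjusted p = 2.55e-06) and Eif4g2, a scaffold that works with eIF3d on some mRNAs, by 0.16 (adjusted p = 0.00144; -0.01 with no scaling factors). Eif4h, a helper of the eIF4A helicase, rose from 328 ± 4.18 to 365 ± 7.49 CPM (0.16 ± 0.04 SE, adjusted p = 0.00739). Eif4e, the cap-binding protein, rose (0.18 ± 0.06 SE, adjusted p = 0.0247), a call lost in 6 of 17 alternatives. Pabpc1 and Eif4h passed in all 17.

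Of 5 recycling and reinitiation factors 1 rose and 0 fell. This was Denr (0.18 ± 0.06 SE, adjusted p = 0.0266), lost in 5 of 17 alternatives, 4 of them with a library left out. Abce1, the ATPase that splits ribosomes and works beside eIF3j, was at 192 ± 1.38 CPM in controls and 187 ± 4.66 CPM with the eIF3m siRNA (-0.04 ± 0.05 SE, adjusted p = 0.53). Of 4 tested genes of mTORC1 and S6 kinase, which dock on eIF3, 0 rose and 2 fell. Rptor fell by 0.33 ± 0.09 SE (adjusted p = 0.00788), and did not pass with no scaling factors (-0.18), while Mtor fell by 0.20 (adjusted p = 0.0466), lost in 13 of 17 alternatives.

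Genes most like each member over the 6 libraries were ranked by Pearson correlation of log2 CPM among 7075 genes. With 6 points and so many genes a high correlation is found for nearly any pattern, so these values are a description, and the points share their library and its depth. Tbc1d23 (r = 0.99) and Psmb5 (r = 0.988) were nearest to Eif3g; both passed as fallen, by 0.24 and 0.18 on the log2 scale. Gsr (r = 0.983) and Il10rb (r = 0.982) were nearest to Eif3i and did not pass (-0.14 and -0.23). Prmt7 (r = 0.967) and Dnajb2 (r = 0.959) were nearest to Eif3b, Utp3 (r = 0.954) and Chst3 (r = 0.945) to Eif3d, and Acadm (r = 0.98) and Parl (r = 0.965) to Eif3j, none of which passed. Correlations above 0.9 were reached by 117 genes for Eif3g and 121 for Eif3i, and by 18, 15 and 37 for Eif3b, Eif3d and Eif3j.

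How the libraries are scaled decides the sign of some of these values. With no scaling factors the median of all genes moved from 0.01 to 0.16 on the log2 scale, and the 5 members moved with it, to 0.17 for Eif3b, 0.15 for Eif3d, 0.02 for Eif3g, 0.02 for Eif3i and 0.16 for Eif3j. Eif3b (adjusted p = 0.00123) and Eif3d (adjusted p = 0.0202) passed as risen there. Taken relative to the median of all genes, Eif3b was at 0.01 with and without scaling factors, Eif3d at -0.01, Eif3g and Eif3i at -0.14, and Eif3j at 0.01. Scaling factors shift all genes by nearly the same amount, so these values could hardly differ and show no stability. With no filter on low counts, 22068 genes were tested and their median was 0.07. Relative to that median, Eif3b was at -0.07, Eif3d at -0.09, Eif3g and Eif3i at -0.22, and Eif3j at -0.07. The log2 fold changes themselves were 0.0038 for Eif3b, -0.0138 for Eif3d, -0.144 for Eif3g, -0.148 for Eif3i and 0.0024 for Eif3j. With libraries thinned to equal depth, Eif3j was at 0.12 relative to the median and at 0.1304 itself.

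**Figure D4:**
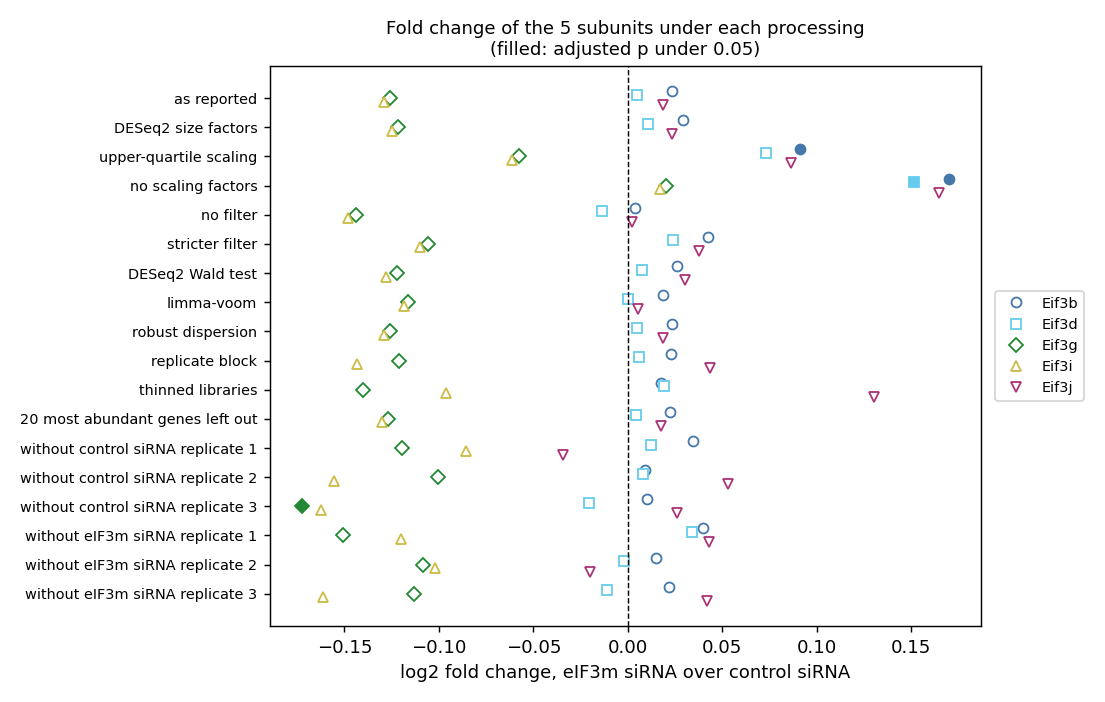
Log2 fold change of the 5 subunits outside the octamer (horizontal axis) under the processing reported and 17 alternatives (vertical axis); filled symbols passed at adjusted p under 0.05. Eif3g and Eif3i lie left of 0 except with no scaling factors, Eif3b lies right of 0 throughout, and the 4 filled symbols are Eif3b with upper-quartile scaling and with no scaling factors, Eif3d with no scaling factors and Eif3g without control replicate 3.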

How the data were processed

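Each file holds raw counts per gene, as the authors deposited them. The submitters' processing notes name Trimmomatic 0.40, HISAT2 2.2.1, DESeq2, limma and featureCounts, with rn6 as build. The gene annotation, strand setting and treatment of multi-mapping reads were not given in the sources used here. A SMARTER kit was used on 1.3 ug of total RNA, per the labels' protocols.

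Rows whose symbol had become a date (27 per file, 0.203% to 0.216% of counts) were left out. filterByExpr (minimum count 10, minimum total 15) kept 12724 genes. The comparison used edgeR 4.0.16 (R 4.3.3) with TMM scaling and the quasi-likelihood F-test without covariate (two-sided, Benjamini-Hochberg adjusted p under 0.05), after a check on simulated data. CPM are relative to the TMM-scaled total of the genes tested. SE and 95% intervals come from that fit; for Eif3d and Eif3j edgeR replaced the p of the F-test (0.917 and 0.786) by that of a Poisson test (0.96 and 0.978). DESeq2 1.42.0 and limma 3.58.1 were alternatives. Sequences were read with Python 3.11.15.

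The members, lists and alternatives were chosen with earlier results of these data known. Named were the members, Eif3m, octamer subunits that passed, in each partner list up to 2 called genes per direction with the lowest p, and per member the 2 genes of highest correlation with a mean of at least 20 CPM (prior count 2). Other genes were named after their values were seen.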

Additional observations from a re-analysis of the deposited data

How the results depend on the processing

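Under 17 alternatives Eif3m kept its direction and its call (-0.67 to -0.49 on the log2 scale). The count of called members was 0 in all but 3: 1 with upper-quartile scaling (Eif3b, 0.0913, adjusted p = 0.048), 2 with no scaling factors (Eif3b 0.17, Eif3d 0.15) and 1 without control replicate 3 (Eif3g, -0.17); leaving out 1 library gave 0 to 1. Signs turned with no scaling factors for Eif3g (0.0203) and Eif3i (0.0172), and for Eif3d with no filter (-0.0138) and limma-voom (-1.3e-05). Leaving out 1 library gave 0.0092 to 0.0397 for Eif3b, -0.0205 to 0.0342 for Eif3d, -0.1722 to -0.1005 for Eif3g, -0.1622 to -0.0857 for Eif3i and -0.0344 to 0.0529 for Eif3j. The sign of Eif3d turned without control replicate 3 (-0.0205) or eIF3m siRNA replicates 2 (-0.0021) or 3 (-0.0111), and that of Eif3j without control replicate 1 (-0.0344) or eIF3m siRNA replicate 2 (-0.02); none of these passed. The cause of these turns was not tested, other than that scaling factors move all genes.

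Over all genes 2220 rose and 2700 fell; 4163 and 1680 with no scaling factors, and 1364 and 1767 with libraries thinned to 2151671 counts, where 10776 genes were tested. Of the calls 45.1% were risen, and 58.6% and 71.2% with upper-quartile scaling and no scaling factors. The ratio of the members to the other octamer subunits, 1.13-fold, was 1.12- to 1.15-fold with 1 library left out, 1.05-fold without Eif3a and Eif3c (1.051) and 1.06-fold with equal weights (1.064). Same-numbered libraries did not visibly deviate together over the genes tested (r = 0.03, -0.005 and 0.008). Counting scatter can hide such a pairing, so whether the numbers pair the samples is not settled by these values. With a replicate block 2123 genes rose and 2632 fell and 0 members passed (Eif3i -0.14, adjusted p = 0.0981). The smallest library, eIF3m siRNA replicate 2, limits depth: Eif3i had 159 counts there and Eif3j 165.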

Other observations

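Eif1 and Eif5, a pair of start codon factors that bind eIF3 directly, were high in a single library. In the order of replicates 1, 2 and 3, Eif5 measured 519, 541 and 494 CPM in the control libraries and 364, 1810 and 432 CPM in the eIF3m siRNA libraries. Eif1 measured 479, 471 and 471 CPM in the controls and 440, 1350 and 476 CPM in the eIF3m siRNA libraries. In eIF3m siRNA replicate 2, the smallest library, Eif5 had 4082 counts, about as many as the 3657 to 4227 of the controls, whose totals are larger. Among 7318 genes that averaged 20 CPM or more over the other 5 libraries, Eif5 (3.34-fold above the next highest library) and Eif1 (2.81-fold) were the 2 that were at least 2-fold higher there than in each of the others; the gene next in order was at 1.74-fold. By the same measure 4 genes, led by the globins Hbb and Hba1, stood apart in eIF3m siRNA replicate 1, and 0 in each of the other 4 libraries. Nupr1, a stress-induced nuclear protein too low elsewhere for this comparison, was at 154 CPM in eIF3m siRNA replicate 2, against 4.57 to 6.41 CPM in the others. Genes below 20 CPM were not searched in this way, so how many others of them stand apart in a single library was not counted.

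With all 6 libraries neither initiation factor passed (Eif5 0.72 ± 0.40 SE, adjusted p = 0.174; Eif1 0.65 ± 0.28 SE, adjusted p = 0.0838). Without eIF3m siRNA replicate 2, Eif5 turned and passed as fallen (-0.38 ± 0.07 SE, adjusted p = 0.000511), and Eif1 was at -0.05 (adjusted p = 0.44). Nupr1 was at 2.68 with that library and at -0.36 without it, and passed in neither. None of the 5 eIF3 subunits outside the octamer stood apart in that library in the same way: Eif3j was at 73.1 CPM there, its highest value, and Eif3g and Eif3i, at 80.1 and 70.4 CPM, were at their lowest. These genes were singled out after their values had been seen.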
